A study of Mus musculus with 24 samples.

Results

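CD11b-positive cells of the striatum were compared with CD11b-positive cells of the frontal cortex in control mouse offspring that had received saline. The 2 groups were taken by their labels and hold 3 libraries each, 6 of the 24 bulk RNA-seq libraries of a series on maternal immune activation (MIA). The striatum group comprised male control offspring of 8 to 10 weeks given saline, and the cortex group comprised frontal cortex of male control offspring of the same age and treatment. Tissue was taken 18 h after the injection. The brains had been perfused, the meninges had been removed, and papain-dissociated cells had been bound to magnetic beads against CD11b, an integrin that other myeloid cells carry as well as microglia. Striatum was a pool of pieces from 2 coronal levels and included tissue around the nucleus accumbens. The labels do not say whether the 3 libraries of a group, or a striatum and a cortex library of the same number, came from separate animals. The p-values therefore measure only the spread between samples within groups, which may be technical. That spread was estimated over 23 libraries of all 8 groups of the series, not over these 6 alone.

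Microglia are the resident macrophages of the brain. They depend on signalling through the colony-stimulating factor 1 receptor, survey tissue with purine and chemokine receptors, and are known to differ between brain regions. A magnetic CD11b fraction can also hold border-associated macrophages, blood myeloid cells and fragments or doublets of vessels, myelin, neurons and astrocytes, and these neighbours themselves differ between striatum and cortex. Genes were therefore read in 34 lists, 18 of microglial groups and 16 of other cells, with 587 of their 599 genes tested. Levels are given as CPM, counts scaled to library size, which compare libraries for 1 gene and not genes with each other.

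The libraries held 20020031 to 28229325 counts and 18072 to 20324 genes with a count, and mitochondrial genes took 2.10% to 4.22% of counts. The label microglia fitted the most abundant lists. The 27 homeostatic microglia genes summed to 94111, 96894 and 108580 CPM in the striatum libraries and 109370, 114660 and 113990 CPM in the cortex libraries. P2ry12, through which microglia sense ADP, had 4157, 4413 and 5251 CPM in striatum and 5620, 5212 and 5757 CPM in cortex. All 27 of these genes were tested. Of the 18 lymphocyte genes 11 were tested, and they summed to 498, 478 and 488 CPM in striatum and 540, 447 and 381 CPM in cortex, most of it from the immunoglobulin gene Ighm at 455 CPM in striatum and 420 CPM in cortex (means, n = 3 each).

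Transcripts of vessels, myelin and striatal neurons were among those higher in striatal than in cortical libraries, and 8 genes, Ptger3, Emb, Itgal, Fpr1, Cd209f, Ccr1, Rgs18 and Cd300a, were lower. edgeR's quasi-likelihood test with Benjamini-Hochberg adjustment called 86 of 17139 genes, or 0.502%, at an adjusted p under 0.05. Of these, 78 were higher in striatum (0.455% of genes tested) and 8 were lower (0.0467%). The libraries of the 2 groups did not overlap for any of the 86. Over all genes tested, 12.4% had all 3 striatum libraries above all 3 cortex libraries and 9.99% had them below. At least a 2-fold change was found for 77 of the 78 rises and 7 of the 8 falls. Without adjustment, 1435 genes were higher and 595 lower at p under 0.05.

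The calls fell unevenly on the lists. Of 229 tested genes on lists of other cells 7.86% were called, 17 higher and 1 lower. Of 358 genes on microglial lists 0.838% were called, 2 higher and 1 lower. The remaining 59 rises and 6 falls were on no list, where 0.393% of 16552 genes were called. The median log2 fold change was 1.28 over the lists of other cells, -0.13 over the microglial lists and -0.05 over all genes tested. In bulk libraries such as these, more cells of a type and more RNA per cell cannot be told apart.

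**Figure D1:**
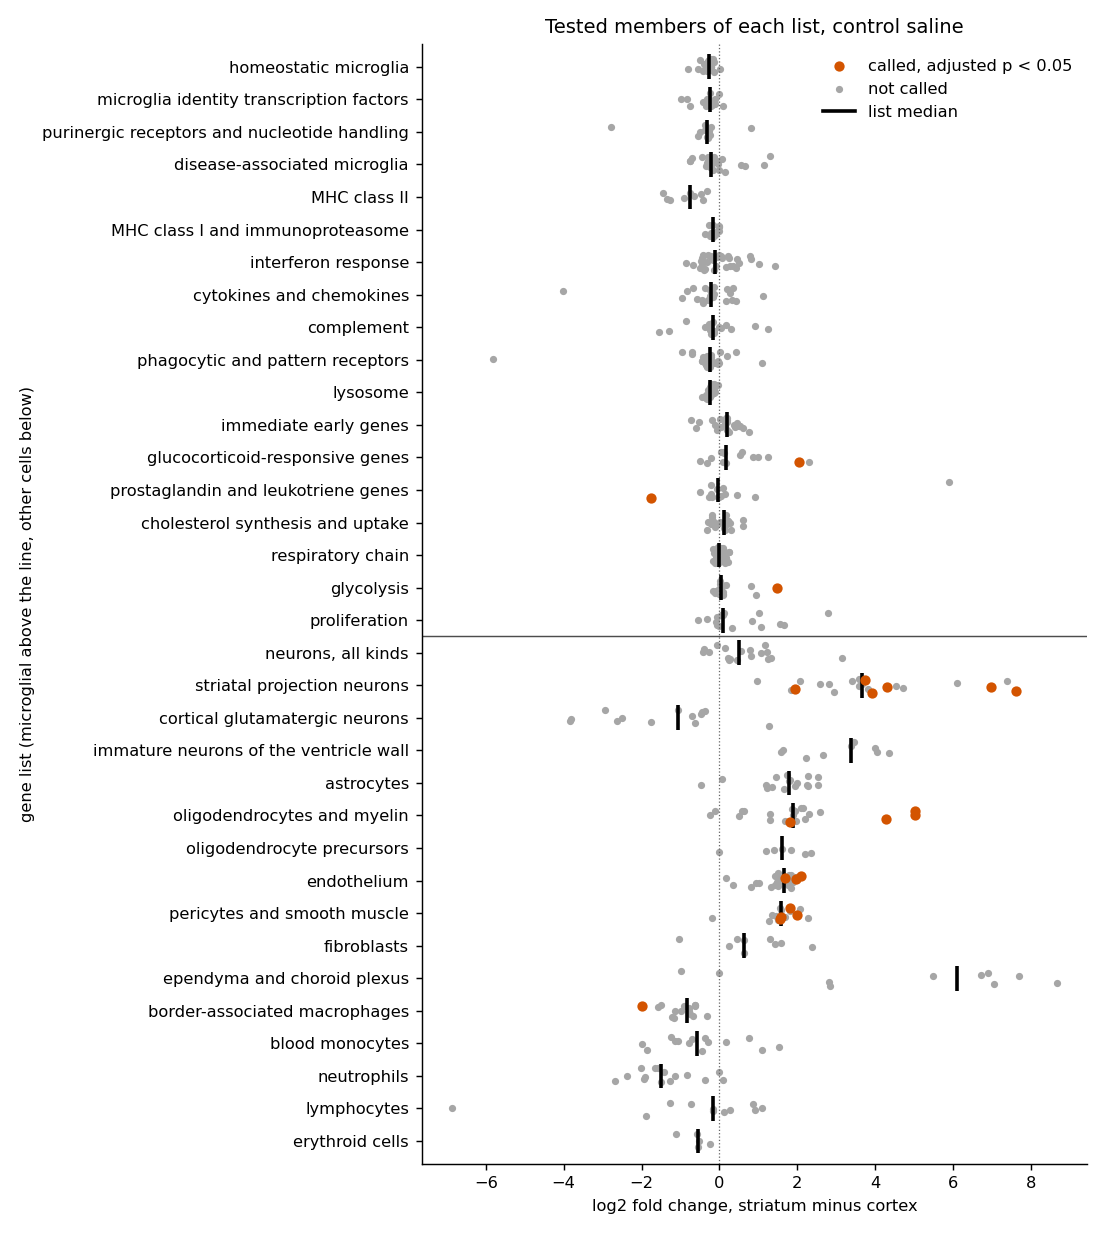
Log2 fold change, striatum minus cortex, of every tested member of each gene list in control saline (points), with called genes in orange and a black bar at the list median. Microglial lists above the line have medians near 0 apart from MHC class II at -0.75, and below the line endothelium (1.65), oligodendrocytes (1.89) and striatal projection neurons (3.65) lie to the right.

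The number of calls depended strongly on single libraries. It was 0 without cortex replicate 1 (1684 genes at an unadjusted p under 0.05), 4 without cortex replicate 2, 18 without cortex replicate 3, 8 without striatum replicate 1, 1 without striatum replicate 2 and 152 without striatum replicate 3. All 86 genes kept their sign in each of these fits, but groups that do not overlap fix that outcome in advance. Striatum replicate 3 had lower vessel and myelin sums than the other striatum libraries, as given with those lists.

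Core microglial genes were not called by edgeR, and most had values slightly below those of cortex. Of the 27 homeostatic microglia genes 0 were called, 26 had a log2 fold change below 0, and the list median was -0.27. For 11 of them all striatum libraries lay below all cortex libraries, and 3 had an unadjusted p under 0.05 by edgeR, while DESeq2 called 1 and limma-voom 0. Of all 17139 genes, 9.99% lay below without overlap and 12.4% above. By edgeR 595 were lower and 1435 higher at an unadjusted p under 0.05. DESeq2 called 570 in either direction and limma-voom 16. The counts of every list below stand beside these same background values. Cx3cr1, the fractalkine receptor, stood at 6796, 6706 and 7034 CPM in striatum and 7519, 8355 and 8923 CPM in cortex, and its log2 fold change was -0.27 with an SE of 0.14 (adjusted p = 0.478). Tmem119, a surface marker of microglia, overlapped between the groups with 4033 ± 1025 CPM in striatum and 5079 ± 785 CPM in cortex (SD, n = 3 each; -0.33 ± 0.21, adjusted p = 0.623). Csf1r, the survival receptor, had 12620 ± 1233 CPM in striatum and 14801 ± 1015 CPM in cortex (-0.23 ± 0.21, adjusted p = 0.768). Sall1, a transcription factor of microglial identity, had 242, 244 and 272 CPM in striatum and 329, 369 and 324 CPM in cortex (-0.43 ± 0.18, adjusted p = 0.319).

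These small shifts depended on what the libraries were scaled to. Scaling to the homeostatic genes themselves moved the median of all genes tested to 0.13 and that of the homeostatic list to -0.09, and Trem2 then had a positive log2 fold change of 0.027. That scaling equalises the summed counts of the homeostatic list, so the smaller list median and the shift of other genes were built in. Transcripts of other cells took a larger share of striatum libraries, and the part of that share in the lower microglial values was not tested. The 23 lysosomal genes behaved likewise, with all 23 below 0, 0 called by edgeR (3 at an unadjusted p under 0.05), 1 by DESeq2, 0 by limma-voom and a median of -0.24, or -0.067 after that scaling. The 26 genes of disease-associated microglia, a state known from models of neurodegeneration, had a median of -0.21 with 6 positive and 20 negative. By edgeR 0 were called, 3 were higher and 4 lower at an unadjusted p under 0.05, while DESeq2 called 2 and limma-voom 0. Fabp5, a fatty acid-binding protein chosen after its values were seen, had the highest value, 1.29 ± 0.37 (adjusted p = 0.119). Apoe, the lipid carrier, had 1994 ± 312 CPM in striatum and 2418 ± 187 CPM in cortex (-0.28 ± 0.21, adjusted p = 0.688). Trem2, the lipid-sensing receptor of that state, had 1129 ± 27.02 CPM in striatum and 1253 ± 119 CPM in cortex (-0.15 ± 0.14, adjusted p = 0.78). Respiratory chain genes, 36 in number, had a median of -0.016 with 0 called by edgeR, DESeq2 or limma-voom and 0 at an unadjusted p under 0.05. Medians of the interferon response, complement and cytokine lists were -0.11, -0.16 and -0.23, and immediate early genes, which respond to dissociation as well as to stimulation, had 0.20 with 17 of 23 positive. None of these 4 lists held a call by edgeR, with 3, 5, 3 and 0 genes at an unadjusted p under 0.05, and DESeq2 called 0, 1, 1 and 0.

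By edgeR 3 genes of the microglial lists were called, while DESeq2 called as many as 3 on a single list, that of glucocorticoid-responsive genes. Slc2a1, which encodes the glucose transporter GLUT1 and is abundant in brain endothelium as well, had 946, 731 and 589 CPM in striatum and 301, 201 and 317 CPM in cortex. It was higher by 1.47 ± 0.29 (adjusted p = 0.0286), while the median of the 17 glycolysis genes was 0.026. Angptl4, a secreted inhibitor of lipoprotein lipase on the glucocorticoid-responsive list, had 17.1, 16.9 and 10.7 CPM in striatum and 4.10, 3.55 and 3.28 CPM in cortex. It was higher by 2.03 ± 0.37 (adjusted p = 0.022), and the median of its 15-gene list was 0.17, with 12 positive and 5 higher at an unadjusted p under 0.05. That median was 0.30 to 0.45 whichever of the 6 libraries was left out. The third gene was Ptger3, which was lower and is described with the other falls.

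Of the 8 genes lower in striatum, 6 were on no list, and they are described one by one. Ptger3 (ENSMUSG00000040016.16) encodes EP3, a receptor for prostaglandin E2. It had 6.43, 6.09 and 4.99 CPM in striatum and 20.1, 19.6 and 19.4 CPM in cortex. The groups were far apart relative to their spread, at 5.84 ± 0.750 CPM in striatum and 19.7 ± 0.351 CPM in cortex (SD, n = 3 each), and the log2 fold change was -1.75 ± 0.26 (SE; adjusted p = 0.00851). The other 14 genes of the prostaglandin and leukotriene list were not called, and the list median was -0.027.

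Emb (ENSMUSG00000021728.8), a partner protein of monocarboxylate transporters found in many tissues, had 2.61, 2.51 and 2.61 CPM in striatum and 11.5, 6.64 and 14.3 CPM in cortex. Its striatum libraries were nearly equal and the cortex libraries varied more, with a log2 fold change of -2.07 ± 0.32 (adjusted p = 0.0104). Ccr1 (ENSMUSG00000025804.5), a receptor for the chemokines CCL3 and CCL5, had 19.8, 12.5 and 8.24 CPM in striatum and 48.3, 35.04 and 44.3 CPM in cortex. It was lower by a log2 fold change of -1.66 ± 0.34 (adjusted p = 0.0337). Cd300a, an inhibitory receptor for phospholipids of dying cells, had the smallest change of the 8, with 160, 168 and 201 CPM in striatum and 240, 253 and 314 CPM in cortex (-0.61 ± 0.13, adjusted p = 0.0404).

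Of the other 4 falls, Cd209f, a C-type lectin of border-associated macrophages, had 6.72, 5.62 and 4.62 CPM in striatum and 21.9, 22.9 and 22.3 CPM in cortex (-1.98 ± 0.40, adjusted p = 0.0296). Itgal, the integrin chain CD11a of leukocytes, Fpr1, a receptor for bacterial formyl peptides, and Rgs18, a regulator of G protein signalling in blood cells, lay below 10 CPM in all 6 libraries. They fall outside the rule for named genes and are named to complete the 8. Their log2 fold changes were -2.39 ± 0.40 for Itgal, -2.76 ± 0.54 for Fpr1 and -2.21 ± 0.46 for Rgs18 (adjusted p = 0.0109, 0.0266 and 0.0371).

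The bases upstream of the start were read for the falls, to show the sequence in front of genes that were lower together. RefSeq promoters on build GRCm38.p6 were held for 6 of the 8. The PU.1 motif GAGGAAGT, bound by the lineage factor of macrophages, was in 0 of these 6 windows of 250 bases on either strand, against 2.44% of 32851 promoters. The shorter ETS core GGAA, which that motif contains, was in 5 of the 6, against 93.4% of all. Ptger3, Emb and Ccr1, whose levels in all conditions are given with the other conditions, are shown 5′ to 3′ on the strand of the gene, with ETS cores on either strand (GGAA or TTCC) in capitals: 0 in Ptger3 (chr3:157566626-157566875, plus strand), 1 in Emb (chr13:117220323-117220572, plus strand) and 2 in Ccr1 (chr9:123968693-123968942, minus strand). Fpr1, Cd209f and Cd300a, not shown, held 3, 4 and 7.
Ptger3: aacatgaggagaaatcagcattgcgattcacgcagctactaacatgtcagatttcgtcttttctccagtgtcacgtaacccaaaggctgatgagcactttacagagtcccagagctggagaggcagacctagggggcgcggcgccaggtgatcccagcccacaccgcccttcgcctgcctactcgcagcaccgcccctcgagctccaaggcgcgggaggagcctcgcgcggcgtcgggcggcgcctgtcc
Emb: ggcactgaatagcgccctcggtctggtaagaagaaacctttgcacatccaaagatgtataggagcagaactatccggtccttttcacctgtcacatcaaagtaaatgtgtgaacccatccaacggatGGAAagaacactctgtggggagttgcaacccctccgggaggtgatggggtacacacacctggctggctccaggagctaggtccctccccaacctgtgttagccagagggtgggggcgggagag
Ccr1: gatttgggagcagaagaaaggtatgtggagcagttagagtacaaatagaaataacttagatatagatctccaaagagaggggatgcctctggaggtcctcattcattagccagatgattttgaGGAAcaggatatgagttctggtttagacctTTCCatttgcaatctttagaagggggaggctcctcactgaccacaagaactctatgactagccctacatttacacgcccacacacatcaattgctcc

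Markers of border-associated macrophages and antigen presentation were lower in striatum beside these falls. Of 16 genes of border-associated macrophages, which line vessels and the brain surface, all 16 had negative log2 fold changes and 13 had all striatum libraries below all cortex libraries. By edgeR 1 was called, Cd209f, and 11 had an unadjusted p under 0.05, while DESeq2 called 5 and limma-voom 0. The median was -0.84. The list summed to 738, 891 and 827 CPM in striatum and 1307, 1356 and 1768 CPM in cortex. Mrc1, the mannose receptor, had 165, 196 and 177 CPM in striatum and 317, 292 and 464 CPM in cortex (-0.995 ± 0.305, adjusted p = 0.139). Lyve1, a hyaluronan receptor outside the rule for named genes and chosen after its values were seen, had 18.4, 28.3 and 18.7 CPM in striatum and 53.9, 62.8 and 77.4 CPM in cortex (-1.57 ± 0.40, adjusted p = 0.0779).

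All 9 MHC class II genes had negative log2 fold changes, 8 without overlap of the groups, and the median was -0.75, or -0.48 without cortex replicate 3. By edgeR 0 were called and 8 had an unadjusted p under 0.05, while DESeq2 called 2 and limma-voom 0. Their summed level was 637, 832 and 782 CPM in striatum and 1199, 1239 and 1411 CPM in cortex. Cd74, the invariant chain that escorts class II molecules, had 210, 282 and 236 CPM in striatum and 377, 370 and 482 CPM in cortex (-0.75 ± 0.32, adjusted p = 0.335). Border-associated macrophages are themselves known to carry class II, and their markers moved with these genes; their part in the class II values was not tested.

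Neutrophil markers were also lower in striatum, with sums of 349, 305 and 343 CPM in striatum and 554, 670 and 414 CPM in cortex and a median of -1.51 over 15 genes, or -0.88 without cortex replicate 2. By edgeR 0 were called and 8 had an unadjusted p under 0.05, while DESeq2 called 1 and limma-voom 0. Ngp, Camp and Ltf, granule genes chosen after their values were seen, were lower in every striatum library than in any cortex library, but S100a8, S100a9 and Ly6g overlapped. Blood monocyte markers were mixed, with sums of 198, 149 and 97.9 CPM in striatum and 104, 97.2 and 114 CPM in cortex. Of 14 such genes 4 were positive and 10 negative, with a median of -0.58. By edgeR 0 were called, and 3 were higher and 4 lower at an unadjusted p under 0.05, while DESeq2 called 2 and limma-voom 0. Fpr1, Itgal and Ccr1 are known in neutrophils or monocytes, and the part of those cells in their falls was not tested. Over the 17 libraries outside this comparison, deviations from group means correlated at 0.7 or more with a score of other cells for 2 of the 8 falls, Cd209f and Rgs18, and for 17.7% of all genes. Cd209f is a member of the macrophage list and was left in that score, but it also reached 0.78 with the fibroblast score. Emb, Cd300a and Fpr1 had no positive correlation of 0.5 or more with any of the 16 scores, which was also true of 48.4% of all genes, but Cd300a correlated negatively with the mural score (r = -0.73), the striatal neuron score (-0.63) and the endothelial score (-0.60), and Fpr1 with the mural score (-0.65). The part of other cells in these falls was not tested.

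**Figure D2:**
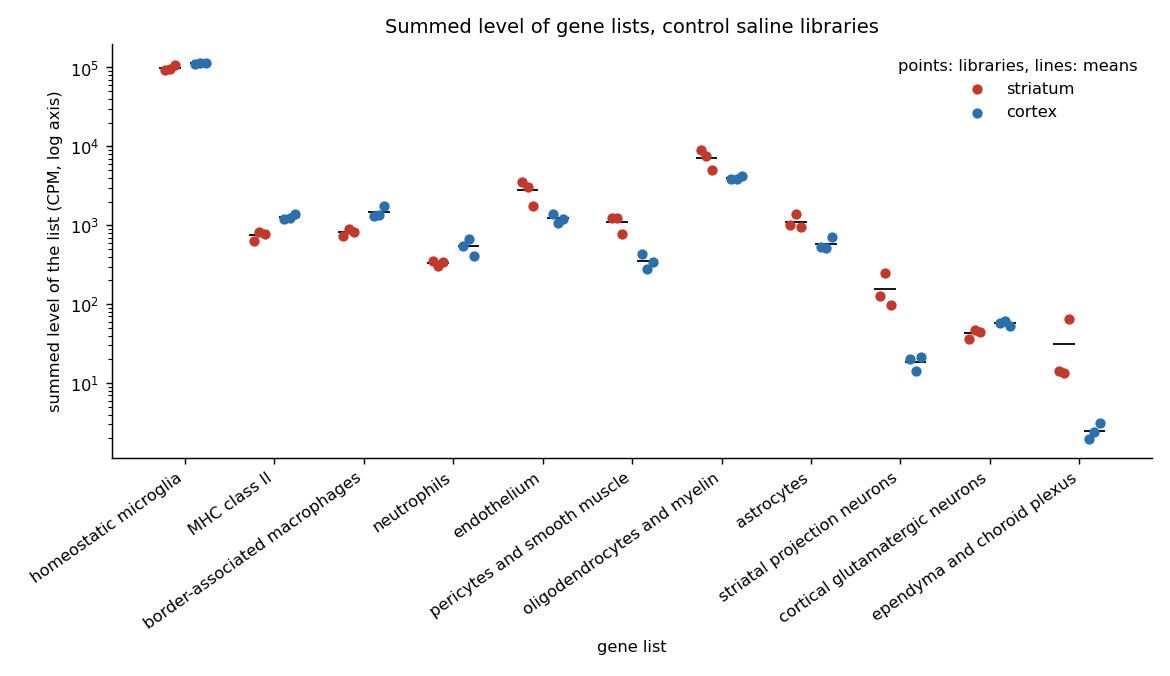
Summed level of 11 gene lists in each control saline library (points, CPM on a log axis) with group means (lines), striatum in red and cortex in blue. The macrophage, MHC class II and neutrophil sums lie lower in striatum, and those of vessels, myelin, astrocytes and striatal neurons lie higher, with 126, 248 and 96.7 CPM in striatum against 20.3, 14.1 and 21.6 CPM in cortex for striatal projection neurons. Most of the myelin sum in cortex came from members that were not called.

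Vessel genes were higher in striatum as a group. Of 28 endothelial genes, 3 were called higher, 25 had an unadjusted p under 0.05, all 28 had positive log2 fold changes and 24 did not overlap, with a median of 1.65. The list summed to 3580, 3015 and 1776 CPM in striatum and 1404, 1062 and 1197 CPM in cortex, so that striatum replicate 3 lay closer to cortex than the other 2 striatum libraries. Ptprb, an endothelial receptor phosphatase, had 154, 131 and 68.2 CPM in striatum and 31.9, 33.2 and 25.7 CPM in cortex (1.96 ± 0.38, adjusted p = 0.0278). Slco1a4, a transporter of the blood-brain barrier, and Esam, an endothelial adhesion molecule, were higher by 2.10 ± 0.46 and 1.67 ± 0.36 (adjusted p = 0.0404 for both). The tight junction gene Cldn5 had 264 ± 62.3 CPM in striatum and 95.3 ± 19.9 CPM in cortex and was not called by edgeR (1.47 ± 0.40, adjusted p = 0.0944), while DESeq2 gave an adjusted p of 0.0118. Of the 28 genes DESeq2 called 21 and limma-voom 0.

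Mural cells, the pericytes and smooth muscle that wrap vessels, moved alongside. Of 15 such genes 4 were called higher (10 by DESeq2, 0 by limma-voom), 14 did not overlap, and the median was 1.57, with sums of 1241, 1248 and 774 CPM in striatum and 433, 282 and 343 CPM in cortex. Vtn, which encodes vitronectin and marks pericytes, had 180, 181 and 113 CPM in striatum and 53.2, 42.3 and 40.6 CPM in cortex (1.80 ± 0.37, adjusted p = 0.0319). Rgs5, a pericyte regulator of G protein signalling, and the contractile genes Myl9 and Myh11 were higher by 1.59 ± 0.35, 1.56 ± 0.34 and 2.00 ± 0.45 (adjusted p = 0.0435, 0.0404 and 0.0477). In the 17 other libraries 28 of the 78 rises correlated at 0.7 or more with the endothelial or the mural score, against 2.68% of all genes. Called members of both lists were left in these scores, so their own correlations are partly built in. With the endothelial score of each library as a term in the model 0 genes were called, 637 had an unadjusted p under 0.05, and the endothelial median was -0.0077. That score is the mean of the 28 endothelial genes, so the term removed their own difference by construction. It was 6.19, 5.93 and 5.07 in striatum and 4.58, 3.96 and 4.28 in cortex. The term thus overlaps with region, and the loss of calls cannot tell the 2 apart.

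Myelin genes were higher in striatum. Of 21 oligodendrocyte and myelin genes 4 were called higher (7 by DESeq2, 1 by limma-voom), 16 did not overlap and the median was 1.89. The list summed to 8994, 7503 and 4969 CPM in striatum and 3893, 3862 and 4244 CPM in cortex. Most of the cortex sum came from members that were not called, so the sums do not measure the called genes. The mean log2 CPM over the list was 4.59, 4.48 and 4.52 in striatum and 2.02, 2.71 and 3.05 in cortex. Mbp, a main protein of compact myelin, had 3227, 2342 and 461 CPM in striatum and 81.7, 103 and 125 CPM in cortex (4.28 ± 0.90, adjusted p = 0.0376). Striatum replicate 3 was far below the other striatum libraries and still above every cortex library. Mobp, a myelin gene, had 1659, 1174 and 191 CPM in striatum and 17.9, 29.2 and 46.0 CPM in cortex (5.02 ± 0.96, adjusted p = 0.0266). Bcas1, a gene of early myelinating cells, and Mal, a lipid raft protein of myelin, were higher by 5.03 ± 1.03 and 1.80 ± 0.32 (adjusted p = 0.0337 and 0.0194). Plekhb1, on no list, followed the same order of libraries within striatum, with 337, 230 and 72.3 CPM in striatum and 10.6, 10.2 and 15.1 CPM in cortex (4.15 ± 0.81, adjusted p = 0.0266). In the 17 other libraries it correlated most with the score of genes shared by neurons (r = 0.80), and at 0.74 with the oligodendrocyte score.

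Genes of striatal projection neurons were higher in striatum. Of 21 tested genes of striatal projection neurons, the inhibitory output cells of the striatum, 6 were called higher (14 by DESeq2, 4 by limma-voom), all 21 had positive log2 fold changes, 20 did not overlap and the median was 3.65. The list summed to 126, 248 and 96.7 CPM in striatum and 20.3, 14.1 and 21.6 CPM in cortex. Ppp1r1b, which encodes the dopamine-regulated phosphatase inhibitor DARPP-32, had 26.1, 45.8 and 22.8 CPM in striatum and 3.26, 1.98 and 1.82 CPM in cortex (3.74 ± 0.66, adjusted p = 0.0194). Penk, the enkephalin precursor, had 13.6, 20.8 and 7.74 CPM in striatum and 0.752, 0.507 and 1.497 CPM in cortex (3.93 ± 0.64, adjusted p = 0.0109). Bcl11b, a transcription factor of these neurons, was higher by 4.29 ± 0.87, and Pde1b, a calmodulin-dependent phosphodiesterase, by 1.95 ± 0.29 (adjusted p = 0.0319 and 0.00851). The other 2 called members, Tac1 and Rgs9, were at or below 6 CPM in every library.

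Genes shared by all neurons and genes of cortical neurons were not called in either direction. Snap25, a synaptic protein of all neurons, overlapped with 19.4, 31.8 and 16.0 CPM in striatum and 25.8, 19.3 and 25.5 CPM in cortex (-0.07 ± 0.58, adjusted p = 0.981). Of 18 genes shared by neurons 0 were called, 1 had an unadjusted p under 0.05, DESeq2 and limma-voom called 0, and the median was 0.50, or 0.13 without striatum replicate 2. Cortical glutamatergic neuron genes, 13 tested, had a median of -1.05, or -1.67 without striatum replicate 3, with 0 called by edgeR, DESeq2 or limma-voom and 3 lower at an unadjusted p under 0.05. Slc17a7, the vesicular glutamate transporter of cortical neurons, had 0.387, 0.0851 and 0.201 CPM in striatum and 1.92, 0.862 and 1.03 CPM in cortex (-2.50 ± 1.32, adjusted p = 0.492). Crym, a thyroid hormone-binding protein, and Unc13c, a synaptic vesicle priming protein, were on no list and were the largest rises among genes of at least 10 CPM, at 6.28 ± 1.04 and 5.93 ± 0.97 (adjusted p = 0.0109 for both). In the 17 other libraries Crym correlated most with the astrocyte score (r = 0.83; striatal neurons 0.72). Unc13c correlated most with the oligodendrocyte score (0.75; striatal neurons 0.32). Their cells of origin were not tested.

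Astrocyte genes, 17 tested, had a median of 1.78 with 0 called by edgeR (4 by DESeq2, 0 by limma-voom) and 12 higher at an unadjusted p under 0.05, and 15 did not overlap. Gfap, the astrocytic intermediate filament, had 12.3, 13.1 and 7.34 CPM in striatum and 4.26, 4.16 and 5.99 CPM in cortex (1.18 ± 0.91, adjusted p = 0.706). Markers of ependyma and choroid plexus, which border the ventricle, summed to 14.1, 13.5 and 65.7 CPM in striatum and 1.96, 2.38 and 3.09 CPM in cortex. Their median was 6.10, or 4.1998 with the 3 members at 0 in cortex set to a floor of 3 counts, and 0 of 10 were called by edgeR (7 at an unadjusted p under 0.05), 5 by DESeq2 and 0 by limma-voom. Nnat, the proteolipid neuronatin, followed the same library with 9.23, 14.9 and 43.8 CPM in striatum and 1.67, 1.77 and 1.36 CPM in cortex (3.82 ± 0.82, adjusted p = 0.0404). Immature neurons of the ventricle wall ran the other way within striatum, with sums of 37.7, 32.7 and 26.5 CPM in striatum and 4.77, 7.51 and 7.63 CPM in cortex. Their median was 3.36, with 0 of 9 called by edgeR (7 at an unadjusted p under 0.05), 1 by DESeq2 and 0 by limma-voom.

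Most rises moved with a score of other cells. Of the 78 rises, 55 correlated at 0.7 or more with a score of other cells in the 17 other libraries, against 17.7% of all genes, and 9 stayed below 0.5 with all 16 scores, against 48.4% of all genes. Of these rises, 17 genes are themselves on the lists of other cells and were left in the scores, so their own correlations are partly built in. Dmrtb1 (ENSMUSG00000028610.16), a DM-domain transcription factor known from the testis, was among those 9. It had 9.47, 11.7 and 11.1 CPM in striatum and 0.460, 0.406 and 0.0468 CPM in cortex, with even levels within striatum (5.12 ± 0.71, adjusted p = 0.00851). Angptl4, Pde1b and Rgs9 were also among the 9. Pde1b and Rgs9 are themselves on the striatal neuron list, so a low correlation does not set a gene apart from other cells. Ccl8, a monocyte-attracting chemokine chosen after its values were seen, had 4.50, 8.81 and 7.71 CPM in striatum and 2.38, 2.43 and 1.97 CPM in cortex (1.63 ± 0.34, adjusted p = 0.0371). Sprr2a2, a member of a family of near-identical cornified envelope genes that can share reads, was also chosen after its values were seen. It had 38, 36 and 31 counts in striatum and 0 in each cortex library, at least 31.8-fold higher against a floor of 3 counts over the cortex group.

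The other 3 conditions gave the same contrast in MIA offspring given saline, control offspring given LPS (lipopolysaccharide, 4500 EU per g, 18 h) and MIA offspring given LPS. Their libraries enter the control saline result through the gene filter, the scaling and the shared estimate of spread. edgeR called 14 genes (0.0817%) in MIA saline, 3 (0.0175%) in control LPS and 2 (0.0117%) in MIA LPS, where striatum has 2 libraries because the third was marked as excluded by its submitters. All 8 falls had negative log2 fold changes in MIA saline, where 7 had an unadjusted p under 0.05 and Emb, Ptger3 and Fpr1 were called, with a median of -1.66 beside -2.03 in control saline. In control LPS all 8 and in MIA LPS 6 of 8 were negative, with medians of -0.93 and -0.31. Of all genes tested, 50%, 51.6% and 50.1% were negative in MIA saline, control LPS and MIA LPS.

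Ptger3 was lower in striatum in each condition. In MIA saline it had 4.43, 4.91 and 5.33 CPM in striatum and 17.3, 20.7 and 15.7 CPM in cortex, close to the control saline values. After LPS it was low in both regions, with 1.34, 0.589 and 1.18 CPM in striatum and 2.08, 2.18 and 1.64 CPM in cortex of control offspring. Emb did not overlap in MIA saline either, with 4.91, 3.77 and 4.37 CPM in striatum and 7.78, 20.8 and 16.6 CPM in cortex. After LPS its groups overlapped, with 19.8, 20.4 and 22.01 CPM in striatum and 23.7, 21.8 and 22.3 CPM in cortex in control LPS. Ccr1 was lower in striatum in all 4 conditions without overlap, for example with 31.8, 37.5 and 38.8 CPM in striatum and 84.1, 94.2 and 81.4 CPM in cortex in control LPS.

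**Figure D3:**
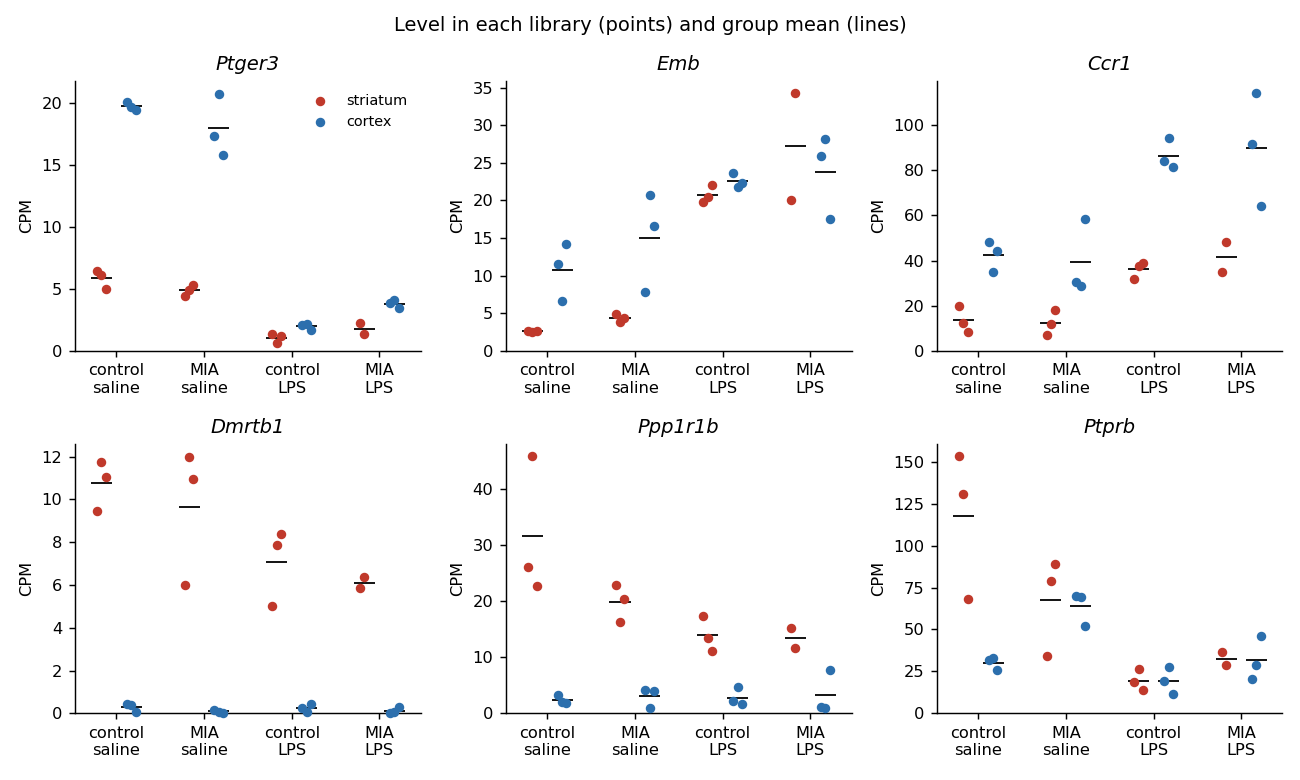
CPM of 6 genes in each of 23 libraries (points) with group means (lines), striatum in red and cortex in blue, for the 4 conditions. Ptger3 and Ccr1 are lower and Dmrtb1 and Ppp1r1b higher in striatum in each condition by their means, while Emb and Ptprb differ in control saline and overlap in control LPS.

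Most rises kept their sign, with smaller values. Of the 78, 65 were positive in MIA saline, 64 in control LPS and 64 in MIA LPS, with medians of 0.30, 0.23 and 0.33 beside 1.96 in control saline, the contrast that chose them. The endothelial list had medians of 0.0036, 0.00026 and -0.033 in these 3 conditions, and the mural list 0.090, 0.12 and 0.43. Ptprb had 34.1, 78.8 and 89.0 CPM in striatum and 69.9, 69.6 and 51.9 CPM in cortex in MIA saline, so the groups overlapped. The striatal neuron list stayed higher, with medians of 2.69, 2.04 and 1.22. The list of border-associated macrophages had medians of -0.999, -0.74 and 0.046, and MHC class II -0.96, -0.54 and 0.095.

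Dmrtb1 was the only gene called in the same direction in all 4 conditions. It had 6.02, 12.005 and 10.98 CPM in striatum and 0.168, 0.0821 and 0.0326 CPM in cortex in MIA saline, and 5.04, 7.88 and 8.38 CPM in striatum and 0.242, 0.0824 and 0.432 CPM in cortex in control LPS. Its log2 fold changes were 6.66 ± 0.79, 4.79 ± 0.71 and 5.43 ± 0.77 in MIA saline, control LPS and MIA LPS (adjusted p = 0.00092, 0.0233 and 0.0129). Sprr2a2 was called in MIA saline and control LPS as well and had 0 counts in all 12 cortex libraries. Whether the regional difference itself changed was tested for all 17139 genes. Between MIA saline and control saline edgeR called 0 genes (718 at an unadjusted p under 0.05), and between control LPS and control saline 0 (946), with lowest adjusted p-values of 1 and 0.341.

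**Figure D4:**
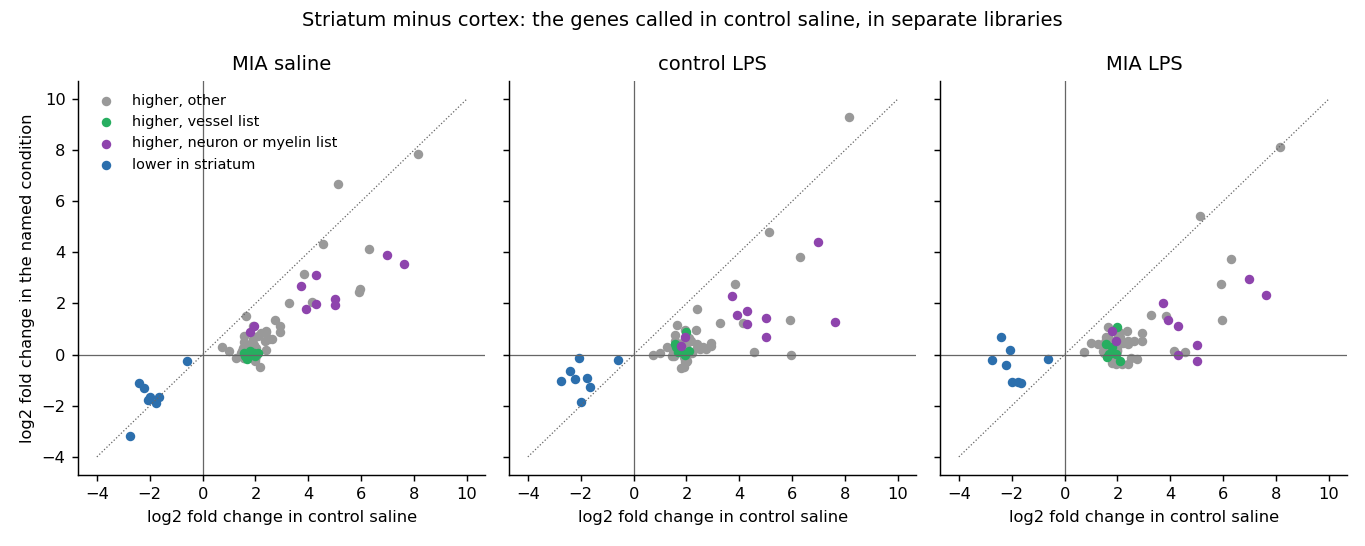
Log2 fold change, striatum minus cortex, of the 86 called genes in control saline (x axis) and in MIA saline, control LPS and MIA LPS (y axes), with blue for genes lower in striatum, green for endothelial and mural list genes, purple for neuron and myelin list genes and a dotted line of equal change. Most green points lie closer to 0 on the y axes than on the x axis, and blue points lie below 0 in MIA saline and control LPS.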

How the data were processed

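RNA of CD11b-selected cells was sequenced from oligo-dT primed cDNA. The deposited table held expected counts per gene for 24 libraries, which the authors made with STAR and RSEM per the submitters' processing notes, which also name DESeq2. Tool versions and the genome build are not given in the sources used here. Expected counts were rounded before testing, as 6.92% of values were not whole. Of 55487 Ensembl IDs, 55141 matched a symbol. RSEM divides reads among near-identical genes, so values of such genes depend on that split.

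Genes were kept by filterByExpr (minimum count 10, minimum total 15, 8 groups) and libraries scaled with TMM. One edgeR 4.0.16 quasi-likelihood model (R 4.3.3) with 1 term per group was fitted to 23 libraries, with 15 residual degrees of freedom. MIA striatum LPS replicate 3, marked excluded in its title, was left out. Two-sided p-values were adjusted by Benjamini-Hochberg over all 17139 genes, and a gene was called under 0.05. DESeq2 1.42.0 and limma 3.58.1 (voom) served as alternatives, with other scalings, filters, library sets, a replicate block and marker scores as terms. Levels are TMM-scaled CPM, and scores are mean log2 CPM (prior count 2). Scripts were tested on simulated data with 50 genes for each change set in control striatum saline. edgeR called 24% and 18% of genes set to log2 fold changes of 1 and -1. It called 68% and 50% of those set to 2 and -2, and 0% of unchanged genes. A gene that was not called may therefore still differ. None of the 6 control saline libraries was a copy of another, and the other libraries were not checked for this.

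Named genes were the 10 largest rises and falls called at 10 CPM or more without overlap, up to 4 called genes per list, 16 standard markers (another marker of the rule is not reported here), genes called in all 4 conditions, and genes on no list of other cells that were called with and without the endothelial and neuron scores as terms and correlated below 0.5 with every score of other cells, of which there were 0. Predicted gene names were passed over. Lists, markers and tests were chosen with earlier results of these data known.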

Additional observations from a re-analysis of the deposited data

How the results depend on the processing

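The count of 86 calls (78 higher, 8 lower) moved with the processing, and the cause was not tested. It was 88 with RLE size factors, 93 with upper-quartile factors, 125 with a minimum count of 50 and 87 (83 higher, 4 lower) when scaled to homeostatic microglia genes. DESeq2 called 570 genes (509 and 61), limma-voom 16 (15 and 1), no filter 445 (408 and 37), a fit of the 6 libraries alone 533 (483 and 50), of the 12 saline libraries 419 (376 and 43), and of 24 libraries with the excluded one 19 (18 and 1). With the endothelial score as a term 0 genes were called in either direction, and with endothelial and neuron scores 1 gene, Ppp1r1b, higher (711 at an unadjusted p under 0.05). The endothelial score did not overlap between striatum and cortex, so these fits cannot separate it from region. Leaving out 1 library gave 0 to 152 calls, 0 to 139 higher and 0 to 13 lower. All tested genes of the 86 kept their sign in every setting run. Apart from the fits with scores as terms, the lack of overlap between their groups largely fixed that outcome.

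Same-numbered striatum and cortex libraries had correlations of their deviations of 0.12, 0.042 and 0.17, and the other pairs -0.17 to 0.074. Striatum replicate 2 correlated best with cortex replicate 1 (0.074). By a chi-square per degree of freedom on counts (lower is closer), each striatum library was closest to the cortex library of its own number, at 41.2, 41.1 and 22.5. From the cortex side the match failed for replicate 1, which was closer to striatum replicate 3 (33.1) than to striatum replicate 1 (41.2). Whether the numbers pair the samples was therefore not settled, and the main model does not pair them. A replicate block gave 627 calls (520 higher, 107 lower), including all 86.

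List medians moved beyond the spread between replicates in these settings. Scaling to homeostatic genes gave -0.093 for that list, a decrease in size that this scaling builds in. With the endothelial score as a term the medians were -0.052 for homeostatic microglia, -0.39 for MHC class II, 2.52 for striatal projection neurons, 0.83 for astrocytes, -0.0077 for endothelium, 0.47 for pericytes and smooth muscle and -0.53 for border-associated macrophages. With both scores they were -0.098 for homeostatic microglia, 2.44 for oligodendrocytes and myelin, -0.00046 for endothelium and 0.50 for pericytes and smooth muscle. The endothelial medians in these fits were set by the term, which averages those same genes.

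No called gene changed sign, with the same limit. Of the genes not called, Cldn5 had -0.035, Tmem119 0.12 and P2ry12 0.034 with the endothelial term, and Tmem119 0.042 with both terms. Scaling to homeostatic genes gave 0.027 for Trem2 and 0.12 for Snap25. Snap25 ran from -0.41 to 0.12 when 1 library was left out. Low counts limit Sprr2a2, Itgal, Fpr1, Rgs18 and the ventricle wall and cortical neuron markers.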

Other observations

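Several genes just outside the threshold in control saline were called between striatum and cortex in another condition. They were chosen after their values were seen. Retnla, a secreted resistin-like protein of alternatively activated macrophages, had 5.51, 9.02 and 7.84 CPM in striatum and 1.80, 0.355 and 0.889 CPM in cortex (edgeR log2 fold change 2.86, adjusted p = 0.0532). It was called in MIA saline (3.79 ± 0.68, adjusted p = 0.0335) and in MIA LPS (5.99 ± 0.93, adjusted p = 0.0238). Arg1, the arginase of that same state, was near 1 CPM in control saline striatum (3.67, adjusted p = 0.0647) and was called in control LPS, with 20.4, 52.5 and 24.9 CPM in striatum and 0.533, 1.07 and 2.90 CPM in cortex (4.43 ± 0.72, adjusted p = 0.0455).

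Anxa1, an anti-inflammatory phospholipid-binding protein, had 6.96, 7.07 and 5.16 CPM in control saline striatum and 16.01, 19.02 and 13.1 CPM in cortex (-1.33, adjusted p = 0.0645). In MIA saline it had 2.88, 3.84 and 5.76 CPM in striatum and 28.5, 16.9 and 21.7 CPM in cortex and was called lower (-2.42 ± 0.33, adjusted p = 0.00299). The granule and receptor genes Ngp, Camp, S100a8, Retnlg and Trem1 were called lower in MIA saline as well, at -4.04, -3.85, -3.64, -3.52 and -3.11. They were further from the threshold in control saline (edgeR adjusted p = 0.19, 0.114, 0.292, 0.297 and 0.833). The neutrophil list had a median of -3.64 in MIA saline, -1.51 in control saline, -0.58 in control LPS and -0.032 in MIA LPS.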
